A study of Canis lupus familiaris with 24 samples.

Results

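The genes described here are a chosen part of the ATF4 arm of the integrated stress response. They are transcription regulators, stress outputs, amino acid and one-carbon enzymes, amino acid transporters, and cytosolic tRNA synthetases with the tRNA exporter XPOT. They were chosen as a list of 44 gene symbols, of which the gene count table held 40, out of 32704 genes in all. The list was chosen with earlier results of these data known, so shares set beside those of all genes are descriptions. All 40 passed the filter on low counts that left 12466 genes for testing. PHGDH, MTHFD2, CBS and GPT2 were not found under those symbols and are not analysed here.

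RNA came from MDCK (Madin-Darby canine kidney) cells, which form an epithelium in culture. There were 24 stranded mRNA libraries, in 8 groups of 3. Of the subline MDCK-NBL2 there were cells given TGFb for 4 days with an siRNA against the transcription factor PRRX1 (siPRRX1, labelled partial EMT), cells given TGFb with a control siRNA (siCTR, labelled full EMT), cells given TGFb alone for 4 days (labelled full EMT), and untreated cells at day 4 and at day 0 (labelled epithelial). Of the subline MDCK-II there were cells given TGFb for 4 days (labelled partial EMT) and untreated cells at day 4 and at day 0 (labelled epithelial). EMT is the epithelial to mesenchymal transition, which TGFb can induce in these cells. Both siRNA groups received TGFb, and no siRNA group without TGFb is analysed here. Replicates are numbered, but nothing states that they were separate cultures, so every p-value measures a spread between libraries. That spread is estimated for each gene over all 8 groups together, so it can be too small for a group whose libraries differ more.

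When amino acids run short, unfolded protein accumulates in the endoplasmic reticulum, haem runs short, or viral RNA is sensed, kinases phosphorylate the initiation factor eIF2, which lowers general translation while the ATF4 message is translated more. ATF4 then acts with C/EBP family partners on genes that import and make amino acids, charge tRNAs, handle glutathione, and restrain mTORC1. The roles given below are those known from human and mouse, and an mRNA level does not measure ATF4 protein or eIF2 phosphorylation.

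Levels are CPM (counts of a gene scaled to a common library total) on TMM-scaled library sizes, given in the order of replicates 1, 2 and 3. Changes are log2 fold changes ± SE with adjusted p-values from edgeR's quasi-likelihood F test, by the Benjamini-Hochberg method over all genes tested, and a gene is said to have risen or fallen where the adjusted p was under 0.05. Total counts ran from 6134929 to 27567296 per library. Both sublines carried epithelial markers in every group, with a summed level of 1630 to 3530 CPM for the 8 of 10 found in the table. The leukocyte marker CD3E was at 0 in every library, and PTPRC and the endothelial marker PECAM1 reached at most 0.198 and 0.122 CPM. The fibroblast list ran from 0.629 to 1.45 CPM in MDCK-II cells at day 0 up to 2110 to 5050 CPM in MDCK-NBL2 cells with TGFb, carried mainly by COL1A1 and COL1A2, while PDGFRB stayed at or below 0.0693 CPM. In bulk RNA, fewer cells of a type and less RNA per cell cannot be told apart.

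A pair of libraries stood apart from their groups. Replicate 2 of the libraries labelled MDCK-NBL2 untreated day 4 had a score of 59.3 on the first principal component, which held 59.4% of the variance, with the TGFb libraries of that line at 98.7, 89 and 84.1 and replicates 1 and 3 of its own group at -4.8 and -20. Its level of TGFBI, a gene that TGFb induces, was 1580 CPM, against 0.325 and 0.229 CPM in those replicates. Replicate 1 of those labelled MDCK-NBL2 untreated day 0 held reads of 29 genes typical of the MDCK-II subline. These were picked for at least 10 CPM in MDCK-II at day 0 and far less in MDCK-NBL2 untreated day 4 replicates 1 and 3. Their median level was 9.94% of that in MDCK-II, against 0.0818% and 0.106% in day 0 replicates 2 and 3. That library also held COL1A2 at 68.3 CPM, against 14.6 and 12.4 CPM in replicates 2 and 3 and 0 in MDCK-II. PRRX1 was at 7.07 CPM there, against 0.661 and 0.404 CPM, and TGFBI at 55.6 CPM, against 2.84 and 3.1 CPM. The source of these reads was not tested. For comparisons that use these libraries the number of genes called is given with and without them, and changes without them are given for some genes only.

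Over the 8 groups, 26 of the 40 genes had their highest mean in untreated MDCK-II cells at day 4, and 16 had their lowest mean in TGFb-treated MDCK-NBL2 cells with siPRRX1. The widest span between group means was that of VLDLR, a receptor for lipoproteins and reelin, at 108 CPM with siPRRX1 and 2.03 CPM in MDCK-II cells at day 0. MARS, the methionyl-tRNA synthetase, had the narrowest, at 151 CPM in untreated MDCK-NBL2 cells at day 4 and 130 CPM in MDCK-II cells at day 0. FGF21, SLC7A11 and DDIT4 followed VLDLR, with 46.3-fold, 35.9-fold and 25.8-fold between their highest and lowest group means. As a summary of the list, the median over its 40 genes of the log2 level, each centred on the gene's own mean over all libraries, was 0.55, 0.40 and 0.14 in MDCK-II cells with TGFb, 0.66, 0.82 and 0.91 in untreated MDCK-II cells at day 4, and -0.08, -0.08 and -0.24 in those at day 0. In MDCK-NBL2 it was -0.08, -0.40 and -0.43 with siPRRX1, -0.41, -0.01 and -0.10 with siCTR, -0.09, -0.03 and -0.30 with TGFb alone, 0.72, 0.15 and 0.01 untreated at day 4, and -0.22, -0.25 and -0.45 at day 0. Untreated MDCK-NBL2 cells at day 4 were the least uniform group, with replicate 1 as high as the MDCK-II libraries of that day and replicate 3 near the libraries with TGFb.

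**Figure D1:**
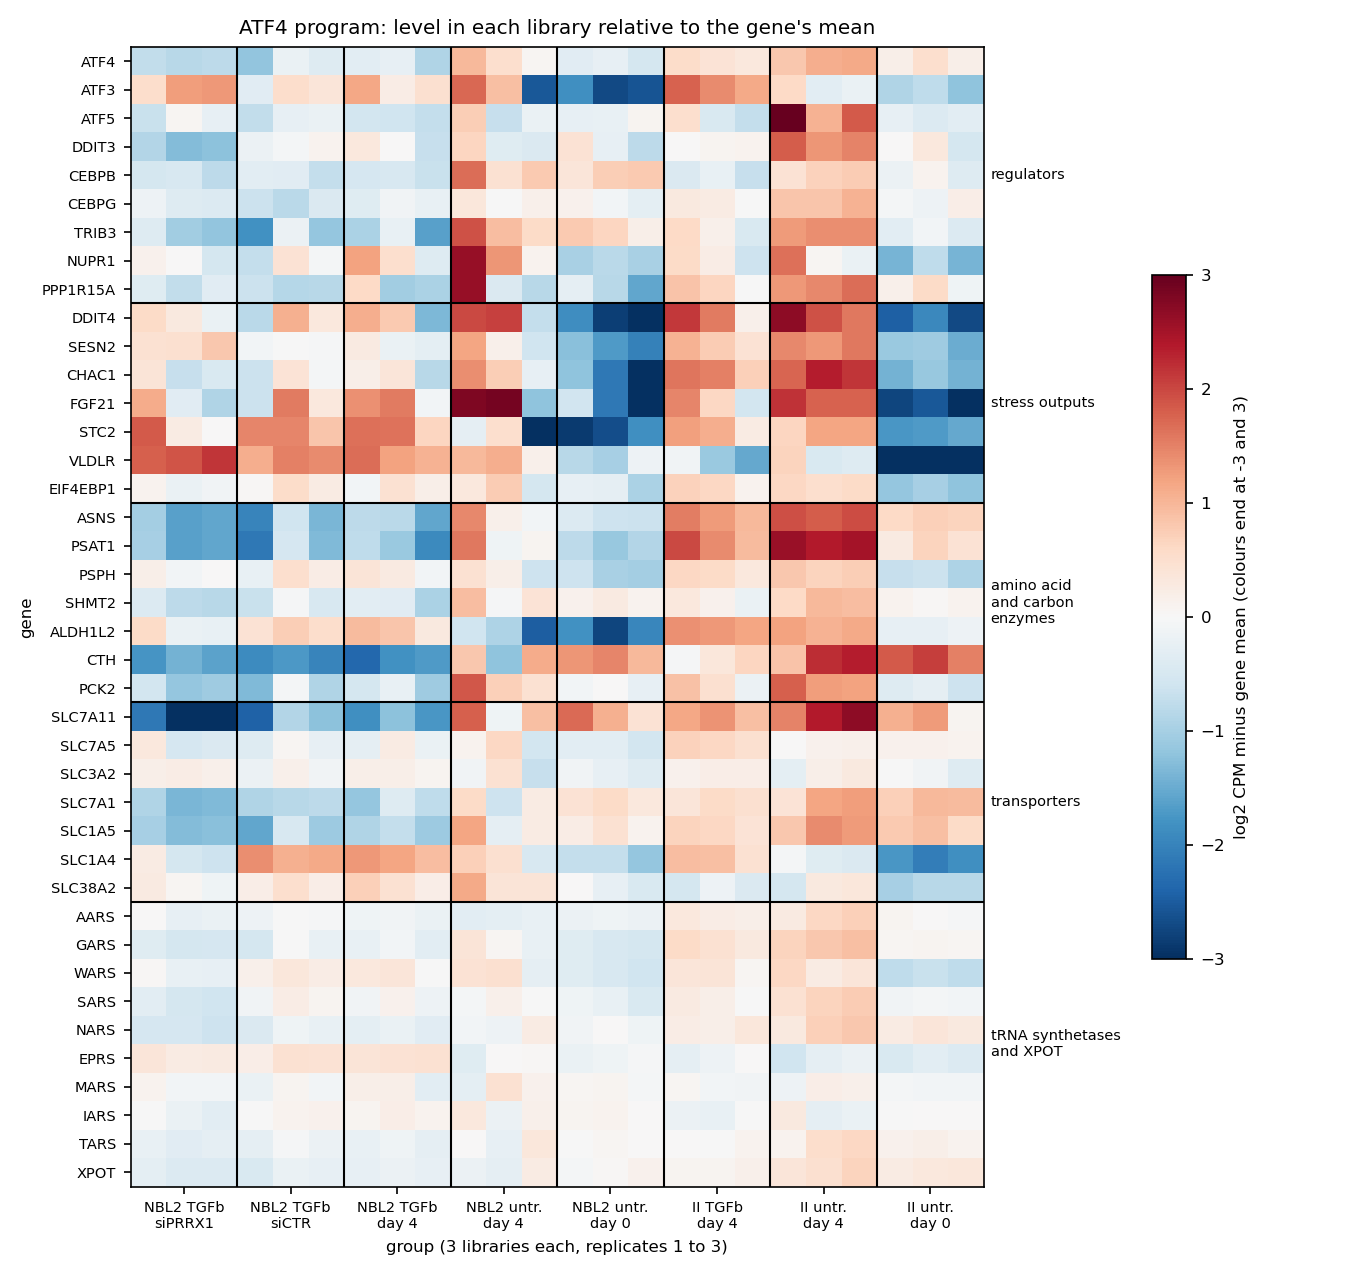
Log2 CPM of each of the 40 genes in each of the 24 libraries, minus the gene's mean over all libraries, with genes in rows by role and the 8 groups of 3 libraries in columns (red above the gene's mean, blue below). The 3 untreated MDCK-II libraries at day 4 are red for most genes of every role but the transporters, whose median is 0.01, 0.28 and 0.33 in replicates 1, 2 and 3. DDIT4 is at 300, 174 and 139 CPM in these libraries.

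The first comparison asks what 4 days without treatment did, since day 4 untreated cells are the control for TGFb. In MDCK-II cells 26 of the 40 genes rose relative to day 0 and none fell, a share of 65%, where 5.76% of all genes tested rose and 4.05% fell. The median of the 40 was 1.09 on the log2 scale, and that of all genes 0. In 30 of the 40 genes every day 4 library lay above every day 0 library, which held for 18.4% of all genes, and in none was the order reversed, which held for 22.7% of all genes. In MDCK-NBL2 cells 20 rose and none fell, a share of 50%, where 12.4% of all genes rose and 5.26% fell, with a median of 0.62 against 0.06 for all genes. There the day 4 libraries lay wholly above day 0 for 15 genes and wholly below for 1, against 12.1% and 8.92% of all genes. The lines shared 18 of the genes that rose, which is 90% of those that rose in MDCK-NBL2 and 69.2% of those that rose in MDCK-II. The like shares over all genes were 20.8% and 45%.

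All 7 stress outputs rose in both lines. DDIT4, an inhibitor of mTORC1, was at 183, 194 and 28.1 CPM in untreated MDCK-NBL2 cells at day 4, against 12.7, 6.45 and 4.58 CPM at day 0. In MDCK-II cells it was at 300, 174 and 139 CPM at day 4, against 8.42, 12.2 and 6.96 CPM at day 0. The day 4 libraries lay above the day 0 libraries in each line, though replicate 3 of MDCK-NBL2 was far below its fellows. The change was 4.07 ± 0.74 (adjusted p = 0.0038) in MDCK-NBL2 and 4.45 ± 0.75 (adjusted p = 0.0013) in MDCK-II.

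CHAC1, which breaks down glutathione, was at 59.1, 37.6 and 18.8 CPM at day 4 in MDCK-NBL2, against 9.56, 4.93 and 2.15 CPM at day 0. Its MDCK-II levels were 75.2, 116 and 99.3 CPM at day 4, against 8.35, 10.1 and 8.28 CPM at day 0. No libraries overlapped in either line, and the changes were 2.76 ± 0.47 (adjusted p = 0.0028) and 3.43 ± 0.47 (adjusted p = 0.00032). SESN2, a leucine sensor upstream of mTORC1, rose by 2.07 ± 0.31 in MDCK-NBL2 and 2.66 ± 0.32 in MDCK-II, again without overlap.

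FGF21, a secreted stress hormone, was the largest riser of the list in MDCK-II. Its levels there were 25, 19 and 18.9 CPM at day 4, against 0.69, 0.825 and 0.24 CPM at day 0 (4.98 ± 0.99, adjusted p = 0.0039). In MDCK-NBL2 they were 38.6, 40.5 and 2.29 CPM at day 4, against 3.6, 1.12 and 0.269 CPM at day 0, so that day 4 replicate 3 lay inside the day 0 range (3.97 ± 0.89, adjusted p = 0.0087). VLDLR rose by 1.44 ± 0.34 in MDCK-NBL2 and 3.81 ± 0.41 in MDCK-II, and its call in MDCK-NBL2 ended without day 0 replicate 2 (adjusted p = 0.059). The secreted glycoprotein STC2 rose by 2.18 ± 0.62 and 2.71 ± 0.60, and EIF4EBP1, a translation repressor that mTORC1 inactivates, by 0.73 ± 0.25 and 1.69 ± 0.26. In MDCK-NBL2 the STC2 call ended without replicate 1 or 2 of either day, with an adjusted p of up to 0.1. The EIF4EBP1 call there ended without replicate 1 or 2 of either day or day 0 replicate 3, at 0.41 to 0.84 with an adjusted p of up to 0.25.

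Of the 9 regulators, 7 rose in MDCK-II and 4 in MDCK-NBL2. ATF4 itself (ENSCAFG00000001324) was at 733, 529 and 387 CPM at day 4 in MDCK-NBL2, against 295, 314 and 258 CPM at day 0. In MDCK-II it was at 657, 801 and 827 CPM at day 4, against 423, 529 and 422 CPM at day 0. The day 4 libraries were the higher ones in each line, with changes of 0.93 ± 0.23 (adjusted p = 0.013) and 0.73 ± 0.23 (adjusted p = 0.048). Leaving out any 1 of the 6 libraries ended the MDCK-II call, with an adjusted p of up to 0.15, and so did leaving out day 4 replicate 1 or day 0 replicate 3 in MDCK-NBL2, with an adjusted p of up to 0.075.

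DDIT3, the CHOP transcription factor of the stress response, was at 31.7, 22.5 and 25.3 CPM in MDCK-II at day 4, against 8.97, 11 and 6.12 CPM at day 0. The groups did not overlap, and the change was 1.58 ± 0.31 (adjusted p = 0.0035). In MDCK-NBL2 the levels were 13.9, 6.88 and 6.54 CPM at day 4, against 12.1, 7.44 and 5.12 CPM at day 0, which overlapped (0.15 ± 0.31, adjusted p = 0.75). ATF5, an ATF4-related factor, likewise rose in MDCK-II (2.62 ± 0.44, adjusted p = 0.0012) and was at 0.21 ± 0.42 (adjusted p = 0.75) in MDCK-NBL2. ATF3, an early stress-induced repressor, showed the reverse pattern of calls, at 3.17 ± 0.62 (adjusted p = 0.0048) in MDCK-NBL2 and 1.02 ± 0.58 (adjusted p = 0.26) in MDCK-II. Whether these changes differ between the lines was not tested. In MDCK-NBL2 the ATF3 levels were 268, 150 and 13.8 CPM at day 4, against 22.6, 12.3 and 13.2 CPM at day 0, so replicate 3 did not share the rise.

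The C/EBP factors CEBPB and CEBPG and the pseudokinase TRIB3, which restrains ATF4 and AKT, rose in MDCK-II by 0.77 ± 0.23, 0.92 ± 0.15 and 1.62 ± 0.40. In MDCK-NBL2 they were at 0.44 ± 0.23, 0.24 ± 0.15 and 0.69 ± 0.39 with adjusted p of 0.17, 0.25 and 0.21. In MDCK-II the CEBPB call ended without any 1 of the 6 libraries (adjusted p of up to 0.15), and the TRIB3 call without day 0 replicate 1 or 3 (up to 0.069). The chromatin regulator NUPR1 rose in both, by 2.69 ± 0.57 in MDCK-NBL2 and 1.94 ± 0.58 in MDCK-II, where the call ended without any of the day 0 libraries or day 4 replicate 1 (adjusted p of up to 0.31). PPP1R15A, the GADD34 subunit that directs dephosphorylation of eIF2, rose in MDCK-NBL2 by 2.10 ± 0.63 (adjusted p = 0.029). Its levels of 158, 19.2 and 14.6 CPM at day 4 show that 1 library carried that call, and without replicate 1 it was at 0.18 (adjusted p = 0.79). It was also lost without day 0 replicate 2 or 3 (adjusted p of up to 0.1).

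**Figure D2:**
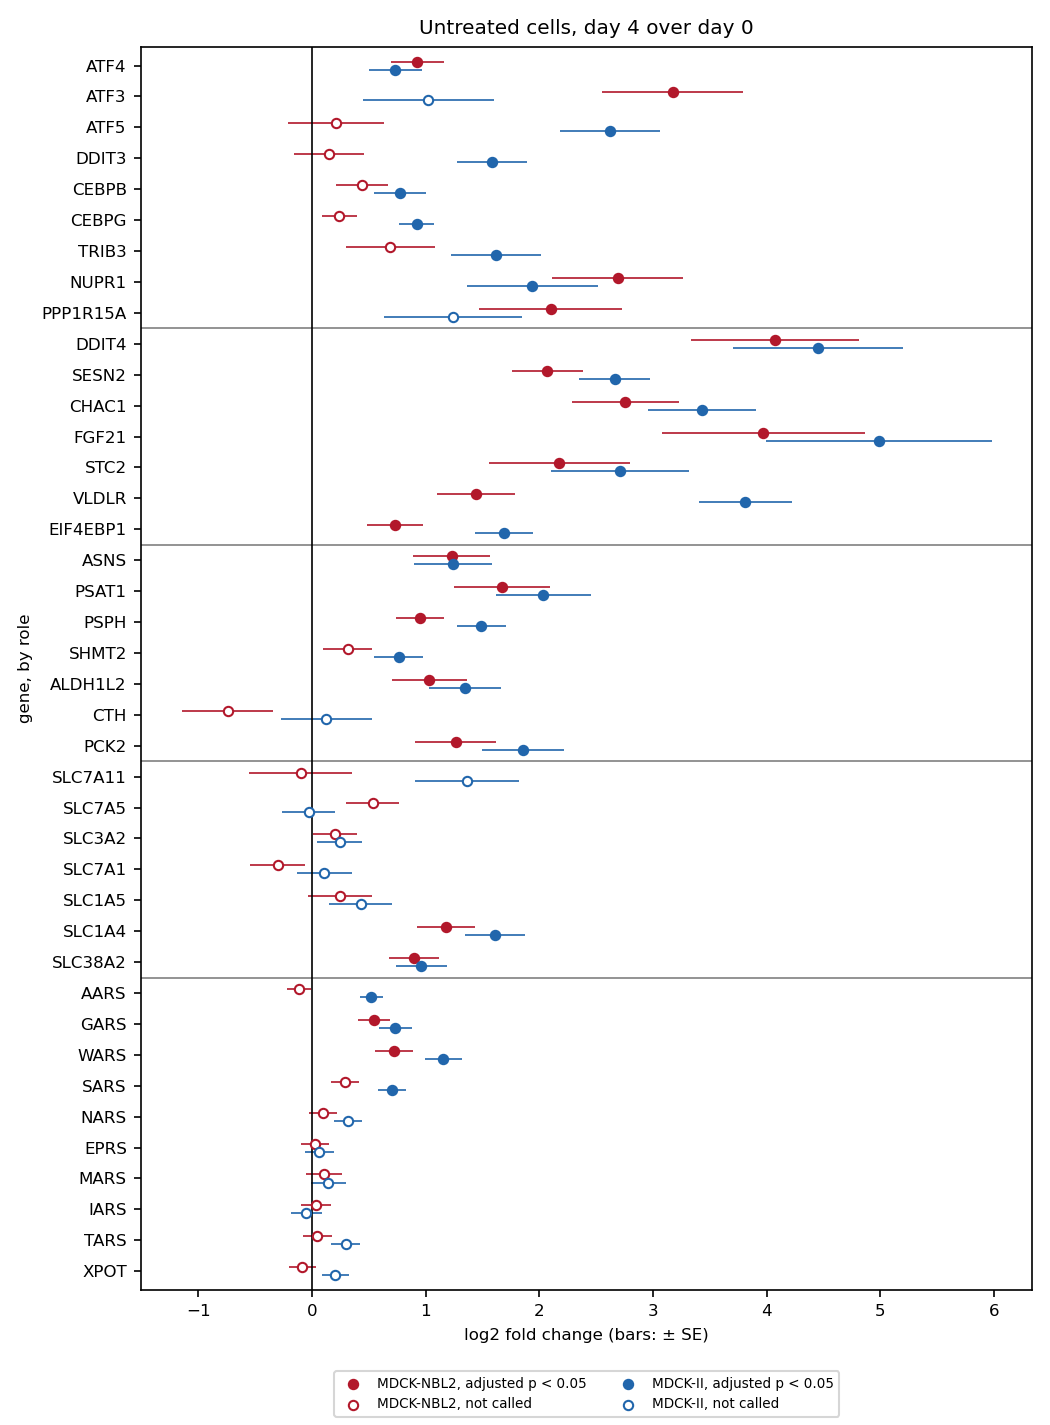
Log2 fold change of untreated cells, day 4 over day 0, for each gene in MDCK-NBL2 (red) and MDCK-II (blue), with bars of ± SE and filled points where the adjusted p was under 0.05. The block of stress outputs from DDIT4 to EIF4EBP1 is filled in both lines, and the lowest point of all is CTH in MDCK-NBL2 at -0.74.

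Enzymes of amino acid and one-carbon metabolism rose with the stress outputs, 6 of 7 in MDCK-II and 5 of 7 in MDCK-NBL2. ASNS, asparagine synthetase, was at 426, 174 and 148 CPM at day 4 in MDCK-NBL2, against 118, 101 and 99.9 CPM at day 0, and at 596, 553 and 614 CPM in MDCK-II, against 238, 259 and 250 CPM. No libraries overlapped, and the changes were 1.23 ± 0.34 and 1.24 ± 0.34 (adjusted p = 0.021 and 0.027). PSAT1 and PSPH, of serine synthesis, rose by 1.67 ± 0.42 and 0.95 ± 0.21 in MDCK-NBL2 and by 2.04 ± 0.42 and 1.49 ± 0.21 in MDCK-II. PCK2, mitochondrial PEP carboxykinase, and the mitochondrial folate enzyme ALDH1L2 rose in both lines as well, by 1.26 ± 0.35 and 1.03 ± 0.33 in MDCK-NBL2 and by 1.85 ± 0.36 and 1.35 ± 0.32 in MDCK-II. SHMT2, mitochondrial serine hydroxymethyltransferase, rose in MDCK-II by 0.76 ± 0.22 and was at 0.31 ± 0.22 (adjusted p = 0.29) in MDCK-NBL2. CTH, which makes cysteine from cystathionine, was the exception in both, at -0.74 ± 0.40 and 0.13 ± 0.40 (adjusted p = 0.19 and 0.88). Several of these calls rested on single libraries. In MDCK-II, ASNS and SHMT2 kept theirs in 1 of 6 fits that each left out 1 library, without day 4 replicate 2 for ASNS and day 4 replicate 1 for SHMT2, with adjusted p of up to 0.098 and 0.11 in the others, and ALDH1L2 lost its call without day 0 replicate 1 or 2 (up to 0.051). In MDCK-NBL2, ASNS, PSAT1, ALDH1L2 and PCK2 lost theirs without day 4 replicate 1, at 0.60, 0.92, 0.69 and 0.71, and without day 0 replicate 2, with adjusted p of up to 0.18, 0.11, 0.19 and 0.17 over all such fits. Without day 0 replicate 3 ASNS, ALDH1L2 and PCK2 were lost too, as was PCK2 without day 0 replicate 1 and ALDH1L2 without day 4 replicate 2. PSPH kept its call in every such fit in both lines.

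Among the 7 transporters, 2 rose in each line. SLC1A4, a carrier of alanine, serine and cysteine, rose by 1.18 ± 0.26 in MDCK-NBL2 and 1.61 ± 0.26 in MDCK-II, and SLC38A2, a neutral amino acid carrier that is induced on amino acid starvation, by 0.90 ± 0.22 and 0.96 ± 0.22. The cystine carrier SLC7A11, the leucine carrier SLC7A5 with its partner SLC3A2, the arginine carrier SLC7A1 and the glutamine carrier SLC1A5 did not pass the test in either line, at -0.30 to 0.54 in MDCK-NBL2 and -0.03 to 1.37 in MDCK-II. Of the 10 tRNA genes, 4 rose in MDCK-II and 2 in MDCK-NBL2. WARS and GARS, for tryptophan and glycine, rose in both lines (0.72 ± 0.16 and 0.55 ± 0.14 in MDCK-NBL2, 1.16 ± 0.17 and 0.73 ± 0.14 in MDCK-II), and AARS and SARS, for alanine and serine, rose in MDCK-II (0.52 ± 0.10 and 0.70 ± 0.12). The other six did not pass in either line. SLC1A4 and WARS kept their calls in each fit that left out 1 library, in both lines. SLC38A2 lost its call in MDCK-II without day 0 replicate 1 (adjusted p = 0.056), and in MDCK-NBL2, with GARS, without day 4 replicate 1 or day 0 replicate 2 or 3 (up to 0.079 and 0.096).

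Further genes of the pathway gave a mixed picture at day 4. Of 14 other reported ATF4 targets tested, 7 rose and none fell in MDCK-II and 3 rose and none fell in MDCK-NBL2; the glycine carrier SLC6A9 rose by 2.18 ± 0.36 and the oxidase ERO1A by 1.67 ± 0.30 in MDCK-II, and KLHL24 and JDP2 by 3.24 ± 0.51 and 2.40 ± 0.40 in MDCK-NBL2. Of 17 targets of ATF6 and XBP1, the other branches of the unfolded protein response, 2 rose and 5 fell in MDCK-II and 2 rose and 7 fell in MDCK-NBL2. The chaperone genes PDIA4 in MDCK-II (-0.69 ± 0.12) and CRELD2 in MDCK-NBL2 (-1.21 ± 0.19) had the smallest adjusted p among them. Of 11 NRF2 pathway genes, which include SLC7A11 of the main list, none rose. In MDCK-II 2 of them fell, among them haem oxygenase HMOX1 (-2.73 ± 0.41). In MDCK-NBL2 6 fell, among them the glutathione synthesis gene GCLM (-1.30 ± 0.21). Of 10 other cytosolic synthetase genes the cysteinyl synthetase CARS, named after its values were seen, was the only one to rise, by 1.24 ± 0.26 in MDCK-NBL2 and 1.15 ± 0.26 in MDCK-II, and 1 of the 10 fell in MDCK-NBL2.

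The MDCK-NBL2 result rests on a group whose libraries differed. Replicate 1 was the highest at day 4 for genes such as PPP1R15A and ASNS, and replicate 3 lay near day 0 for FGF21, STC2 and ATF3. The main fit shares its estimate of the spread over all 8 groups. ASNS therefore had like SEs in both lines, though at day 4 it was at 249 ± 154 CPM in MDCK-NBL2 and 588 ± 31.2 CPM in MDCK-II (SD, n = 3 each). A fit of the compared groups alone called 0 of the 40 genes in MDCK-NBL2, and 27 in MDCK-II. The share of all genes called in the alternative edgeR fits was not computed, so their counts cannot be set beside it. Of the 40 genes, 10 rose in MDCK-NBL2 without day 4 replicate 1, 18 without day 4 replicate 2, 24 without day 4 replicate 3, and 17, 10 and 12 without day 0 replicates 1, 2 and 3. The summed level of 7 dividing-cell markers was 614, 163 and 1610 CPM at day 4 in MDCK-NBL2, against 1330, 1870 and 2020 CPM at day 0, and 749, 1130 and 1150 CPM in MDCK-II, against 1640, 1380 and 1650 CPM. At day 4, 4 of 8 epithelial markers rose and 1 dividing-cell marker fell in MDCK-NBL2, and 1 epithelial marker rose in MDCK-II. The part of these markers in the changes was not tested.

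The second comparison asks how TGFb altered the genes at day 4. It shares the untreated day 4 libraries with the first, so their directions are not independent and are set side by side only. In MDCK-NBL2 cells with TGFb, 4 genes rose and 13 fell (32.5%), where 21% of all genes rose and 23.4% fell, with a median of -0.29 against -0.04 for all genes. In MDCK-II cells 1 rose and 12 fell (30%), where 11.8% of all genes rose and 9.27% fell, with a median of -0.56 against -0.03. The libraries with TGFb lay wholly above their controls for 5 genes and wholly below for 12 in MDCK-NBL2, against 22% and 21% of all genes, and for 3 and 22 in MDCK-II, against 20.3% and 19.5%. The lines shared 5 of the genes that fell, CEBPB, CEBPG, TRIB3, SHMT2 and CTH, which is 38.5% of those in MDCK-NBL2 and 41.7% of those in MDCK-II, where over all genes the shares were 26.1% and 65.8%. SLC1A4 was the 1 gene that rose in both.

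CTH fell in both lines. It was at 16.3, 23.6 and 25.7 CPM in MDCK-NBL2 cells with TGFb, against 148, 36.3 and 181 CPM untreated. The MDCK-II levels were 81.7, 107 and 132 CPM with TGFb, against 153, 393 and 430 CPM untreated. No libraries overlapped, and the changes were -2.47 ± 0.43 (adjusted p = 0.00025) and -1.61 ± 0.41 (adjusted p = 0.01). They were called in each fit that left out 1 library.

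Of the regulators, 5 of 9 fell in each line. CEBPB was at 26.1, 26.4 and 23.3 CPM in MDCK-NBL2 with TGFb, against 119, 50.4 and 63.4 CPM untreated (-1.62 ± 0.24, adjusted p = 7.1e-05). In MDCK-II it was at 27.1, 31.6 and 22.9 CPM with TGFb, against 49.5, 59.4 and 63.1 CPM untreated (-1.07 ± 0.23, adjusted p = 0.0038). TRIB3 fell by 2.07 ± 0.41 in MDCK-NBL2 and 1.19 ± 0.40 in MDCK-II, and CEBPG by 0.40 ± 0.16 and 0.74 ± 0.15. The TRIB3 call in MDCK-II ended without replicate 2 or 3 of either group or untreated replicate 1 (adjusted p of up to 0.15), and the CEBPG call in MDCK-NBL2 was kept only without untreated replicate 2 (up to 0.19 otherwise). ATF4 was at 302, 316 and 200 CPM with TGFb in MDCK-NBL2, against 733, 529 and 387 CPM untreated, and fell by 1.01 ± 0.23 (adjusted p = 0.0018). In MDCK-II it was at 543, 499 and 467 CPM with TGFb, against 657, 801 and 827 CPM untreated, without overlap, yet did not pass the test (-0.60 ± 0.23, adjusted p = 0.067).

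DDIT3 and ATF5 fell in MDCK-II. DDIT3 was at 8.94, 9.38 and 9.6 CPM with TGFb, against 31.7, 22.5 and 25.3 CPM untreated (-1.51 ± 0.31, adjusted p = 0.0027), and ATF5 at 15.4, 7.81 and 6.47 CPM, against 97.6, 22.4 and 39 CPM (-2.43 ± 0.43, adjusted p = 0.001). Neither pair of groups overlapped. In MDCK-NBL2 DDIT3 was at 11.1, 9.01 and 5.41 CPM with TGFb, against 13.9, 6.88 and 6.54 CPM untreated (-0.12 ± 0.32, adjusted p = 0.78), and ATF5 was at -0.71 ± 0.45 (adjusted p = 0.21). PPP1R15A was called lower in MDCK-NBL2 (-1.59 ± 0.63, adjusted p = 0.047), but turned to 0.32 (adjusted p = 0.57) without untreated replicate 1, and was not called without TGFb replicate 2 or 3 either. ATF3 and NUPR1 did not pass in either line. In MDCK-II ATF3 was at 275, 215 and 177 CPM with TGFb, against 122, 64.8 and 69.7 CPM untreated, without overlap (1.38 ± 0.58, adjusted p = 0.092). It was the 1 regulator with a positive change there, and was called in the fit of the compared groups alone. In MDCK-NBL2 it was at -0.17 ± 0.57 (adjusted p = 0.83).

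None of the 7 stress outputs passed the test as lower in either line, and 1 rose: STC2 was at 83.5, 83 and 41.8 CPM in MDCK-NBL2 with TGFb, against 22.1, 37.9 and 2.64 CPM untreated (1.69 ± 0.57, adjusted p = 0.021). The libraries did not overlap, and the call ended without untreated replicate 1, TGFb replicate 1 or TGFb replicate 2, with an adjusted p of up to 0.063. DDIT4 was at 99.8, 79.9 and 18.3 CPM in MDCK-NBL2 with TGFb, against 183, 194 and 28.1 CPM untreated, and at 203, 137 and 51.4 CPM in MDCK-II with TGFb, against 300, 174 and 139 CPM untreated. Both overlapped (-1.04 ± 0.65 and -0.65 ± 0.64, adjusted p = 0.2 and 0.5). In MDCK-II the SESN2, CHAC1 and FGF21 libraries with TGFb lay wholly below their controls, and the other outputs overlapped. Their changes were -0.69 ± 0.29, -0.77 ± 0.42 and -1.18 ± 0.77 (adjusted p = 0.1, 0.2 and 0.28). SESN2 was called there in the fit of the compared groups alone, and VLDLR without TGFb replicate 1. In MDCK-NBL2 SESN2, CHAC1 and FGF21 overlapped, and were called only without untreated replicate 3. The 95% interval of the FGF21 change, -2.83 to 0.42 in MDCK-NBL2 and -2.79 to 0.42 in MDCK-II, shows how wide these estimates were.

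**Figure D3:**
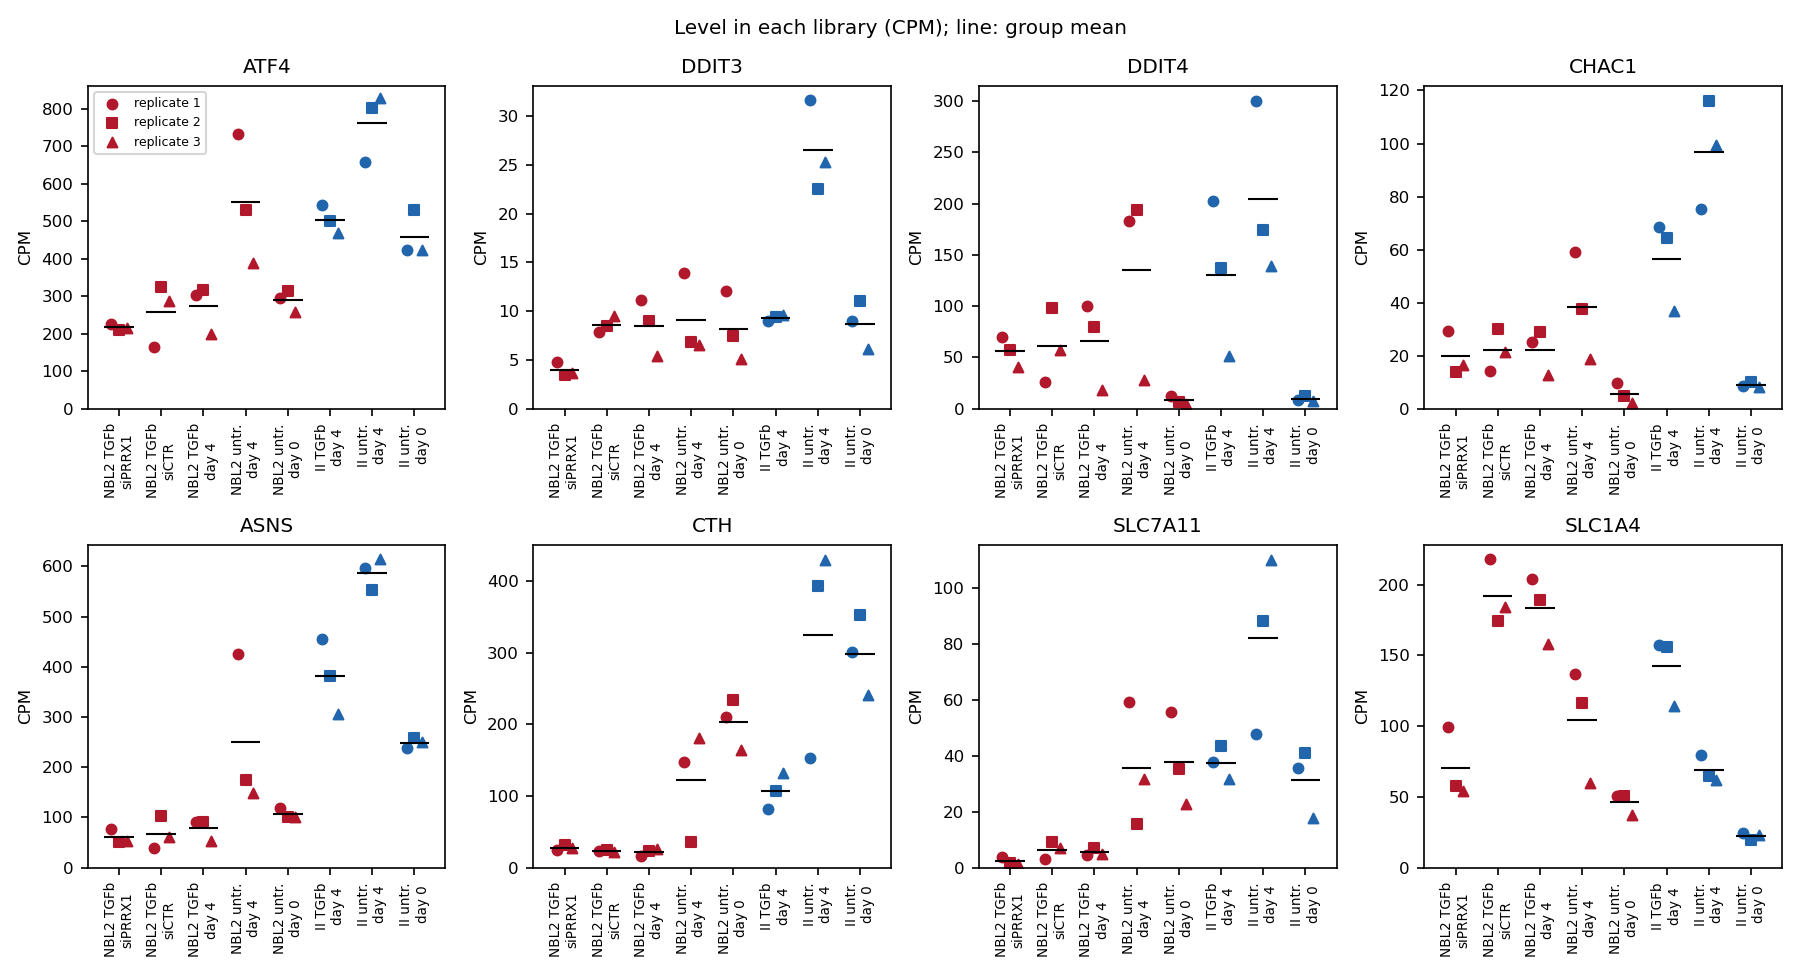
CPM of 8 genes in each library (red MDCK-NBL2, blue MDCK-II; circle, square and triangle for replicates 1, 2 and 3), with a line at each group's mean. SLC1A4 is the 1 gene shown that is higher with TGFb than without in both lines and lower with siPRRX1 (99.4, 57.3 and 54.4 CPM) than with siCTR (218, 174 and 184 CPM).

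Of the enzymes 5 of 7 fell in MDCK-NBL2 and 2 of 7 in MDCK-II, and of the transporters 3 of 7 fell in MDCK-NBL2 and none in MDCK-II. SLC7A11 was at 4.6, 7.07 and 4.96 CPM in MDCK-NBL2 with TGFb, against 59.3, 15.5 and 31.6 CPM untreated, and at 37.7, 43.4 and 31.6 CPM in MDCK-II with TGFb, against 47.9, 88.1 and 110 CPM untreated. Both groups with TGFb lay below their controls, and the changes were -2.66 ± 0.53 (adjusted p = 0.00061) and -1.12 ± 0.46 (adjusted p = 0.084). ASNS was at 91.3, 90 and 53.1 CPM in MDCK-NBL2 with TGFb, against 426, 174 and 148 CPM untreated (-1.68 ± 0.35, adjusted p = 0.00087), and at 456, 382 and 306 CPM in MDCK-II with TGFb, against 596, 553 and 614 CPM untreated (-0.62 ± 0.34, adjusted p = 0.19). PSAT1, PCK2, SLC1A5 and SLC7A1 fell in MDCK-NBL2 by 1.92 ± 0.43, 1.73 ± 0.36, 1.41 ± 0.29 and 0.87 ± 0.25, and were at -0.99, -0.98, -0.62 and -0.52 in MDCK-II without passing the test. With the replicate number as a block PCK2 was called in MDCK-II as well, which made 14 genes in place of 13. SHMT2 fell by 0.98 ± 0.22 in MDCK-NBL2 and 0.75 ± 0.22 in MDCK-II, where its call ended without replicate 2 or 3 of either group (adjusted p of up to 0.096). The SLC7A1 call in MDCK-NBL2 ended without replicate 1 of either group (up to 0.075).

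ALDH1L2 (ENSCAFG00000001911) went the other way in MDCK-NBL2. It was at 99.4, 92.2 and 63.1 CPM with TGFb, against 33.9, 26.9 and 9.18 CPM untreated, and rose by 1.84 ± 0.32 (adjusted p = 0.00025). In MDCK-II it was at 134, 127 and 118 CPM with TGFb, against 120, 106 and 113 CPM untreated (0.16 ± 0.31, adjusted p = 0.75). SLC1A4 (ENSCAFG00000003180) was at 204, 189 and 158 CPM in MDCK-NBL2 with TGFb, against 137, 116 and 59.7 CPM untreated (0.81 ± 0.25, adjusted p = 0.014). The MDCK-II libraries held 157, 156 and 114 CPM with TGFb, against 79.7, 64.9 and 62 CPM untreated (1.05 ± 0.25, adjusted p = 0.0077). The groups did not overlap, and in MDCK-NBL2 the call ended without TGFb replicate 1 or untreated replicate 3, with an adjusted p of up to 0.07.

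Of the 10 tRNA genes, 5 fell in MDCK-II. There SARS, TARS, NARS and AARS and the exporter XPOT fell by 0.47 ± 0.12, 0.40 ± 0.13, 0.37 ± 0.12, 0.31 ± 0.10 and 0.41 ± 0.12. In MDCK-NBL2 none fell, and EPRS, the bifunctional synthetase for glutamate and proline, rose (949 ± 22.4 CPM with TGFb, against 660 ± 95.4 CPM untreated, SD, n = 3 each; 0.52 ± 0.13, adjusted p = 0.0028). The falls in MDCK-II depended on single libraries: without untreated replicate 3 none of the 5 was called, and SARS lost its call also without TGFb replicate 3 (adjusted p of up to 0.058), XPOT without TGFb replicate 1 or 2 (up to 0.093), and AARS, NARS and TARS without any TGFb library or untreated replicate 2 (up to 0.2, 0.17 and 0.16).

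**Figure D4:**
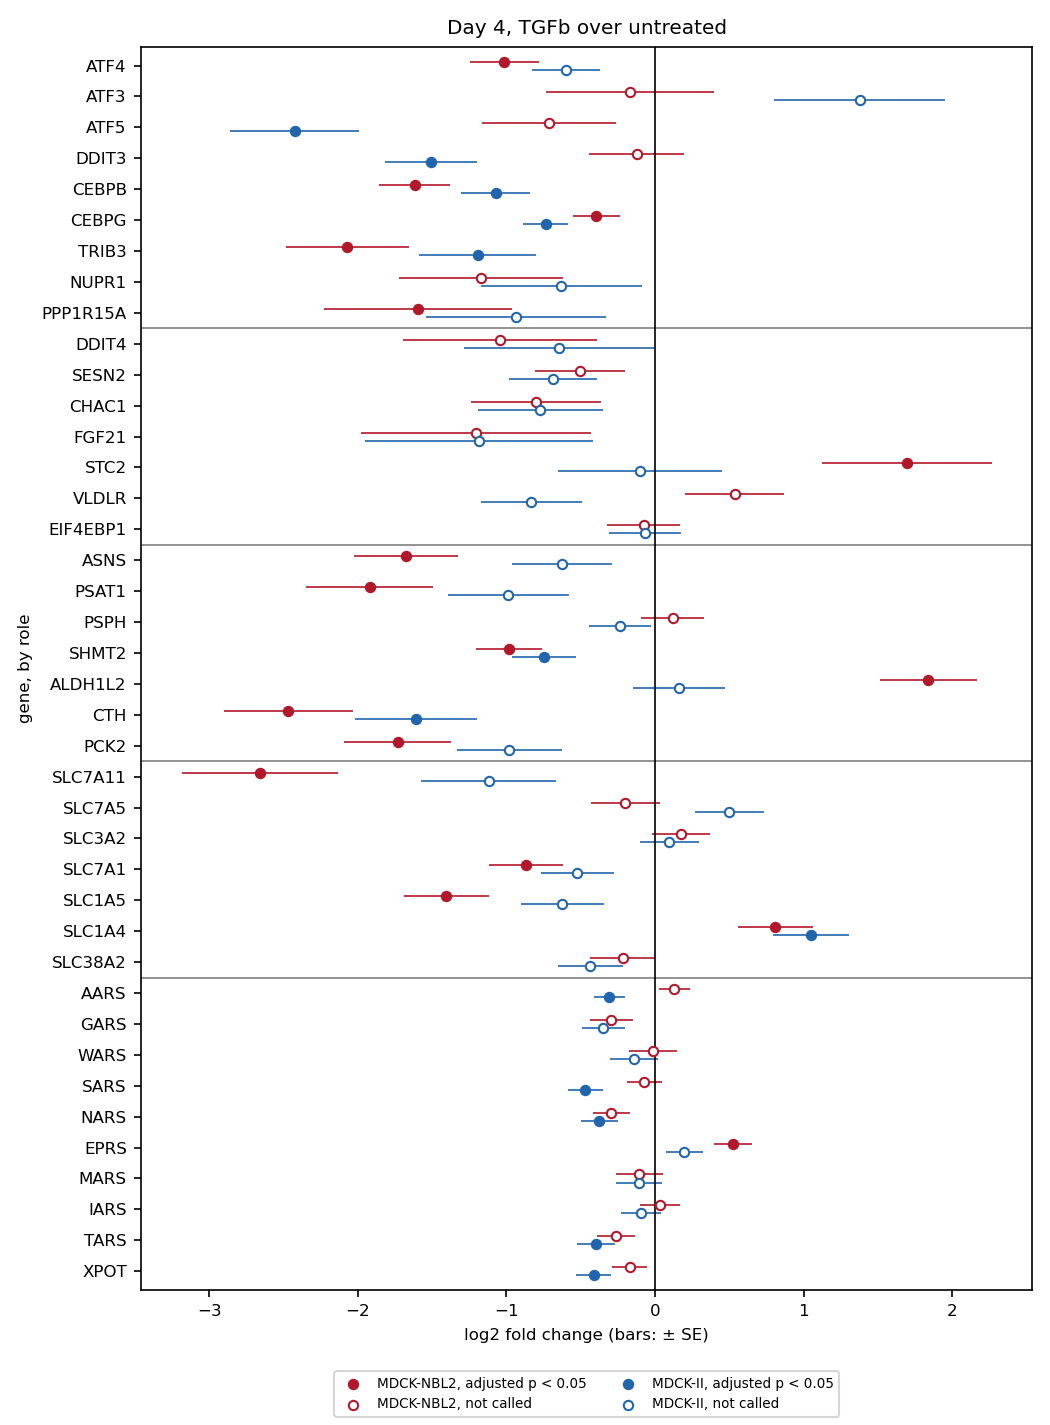
Log2 fold change of TGFb over untreated cells at day 4 for each gene in MDCK-NBL2 (red) and MDCK-II (blue), with bars of ± SE and filled points where the adjusted p was under 0.05. Most points lie left of 0; ALDH1L2 and STC2 in MDCK-NBL2 lie farthest right of the filled points, at 1.84 and 1.69.

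Set beside day 0 as a description only, the TGFb group mean in MDCK-NBL2 lay between those of day 0 and untreated day 4 for 15 genes, below both for 16 and above both for 9. In MDCK-II it lay between them for 26 genes, below both for 8 and above both for 6. ASNS, CTH and SLC7A11 were below both in MDCK-NBL2, while STC2, VLDLR, ALDH1L2 and SLC1A4 were above both there.

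Beyond the 40 genes, 7 of 17 targets of ATF6 and XBP1 rose with TGFb in MDCK-NBL2 and 4 in MDCK-II, and none fell in either, with ATF6 itself at 1.27 ± 0.13 and 0.60 ± 0.13 and the mannosidase-like EDEM1 at 0.82 ± 0.16 in MDCK-II. Of 14 other ATF4 targets 2 rose and 3 fell in each line, among them the mitochondrial protease LONP1 at -1.02 ± 0.15 in MDCK-II. Of 11 other one-carbon and methionine genes, 1 rose and 5 fell in MDCK-NBL2, led by cytosolic SHMT1 at -1.47 ± 0.19, and 2 rose and 2 fell in MDCK-II, with the glycine decarboxylase gene GLDC at 3.97 ± 0.80. Of 13 genes of amino acid sensing by mTORC1, 7 rose and 2 fell in MDCK-NBL2, led by the Rag GTPase gene RRAGC at 0.97 ± 0.12, and 1 rose and 1 fell in MDCK-II. Of 11 NRF2 genes, 1 rose and 2 fell in MDCK-NBL2, and 1 rose in MDCK-II. The 2 that fell include SLC7A11, which is also 1 of the 40 genes. The gene that rose in MDCK-NBL2 was ME1, malic enzyme, at 1.31 ± 0.19.

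The count in MDCK-NBL2 was 13, 20 and 20 without untreated replicates 1, 2 and 3. Without replicate 2, the library that stood apart, SLC3A2, NARS and TARS were added and none was lost. STC2, CTH and SLC7A11 were then at 2.38, -2.9 and -3.02. Without replicate 3, NUPR1, SESN2, CHAC1, FGF21 and GARS were added, and CEBPG and SLC1A4 were lost. A fit of the compared groups alone called 2 of the 40 genes in MDCK-NBL2, CEBPB and SLC7A11, and 20 in MDCK-II. The MDCK-II count was 8 and 6 without untreated replicates 2 and 3, and 7 without TGFb replicate 2 or 3. The 7 dividing-cell markers all fell with TGFb in MDCK-NBL2, where their sum was 37, 69.2 and 101 CPM with TGFb, against 614, 163 and 1610 CPM untreated, and summed to 452, 433 and 598 CPM in MDCK-II with TGFb, against 749, 1130 and 1150 CPM untreated, with none called. In MDCK-NBL2 5 of 8 epithelial markers also fell and 1 rose, with sums of 1860 to 2030 CPM with TGFb, against 2340 to 3530 CPM untreated. The part of these markers in the results was not tested.

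Whether the lines responded to TGFb differently was tested as the response of MDCK-NBL2 minus that of MDCK-II. Of the 40 genes 1 passed, a share of 2.5%, where 5.7% of all genes passed: ALDH1L2, at 1.68 ± 0.45 (adjusted p = 0.033). Over 12 fits that each left out 1 library it was at 1.32 to 2.03, with an adjusted p of up to 0.087, and was called in 5, among them the fit without the MDCK-NBL2 untreated library that stood apart, at 1.76 (adjusted p = 0.012). Its call ended without any MDCK-II library with TGFb, MDCK-II untreated replicate 2 or 3, or MDCK-NBL2 TGFb replicate 1 or 2. DDIT3, ATF5 and SLC7A11, each called in 1 line only, did not pass the test of the difference, at 1.38 ± 0.44, 1.71 ± 0.62 and -1.54 ± 0.69 (adjusted p = 0.069, 0.1 and 0.19). DDIT3 did pass with the replicate number as a block (1.40, adjusted p = 0.036), which made 2 genes in place of 1, and in the DESeq2 Wald test, which called 3 genes with AARS as the other addition. Without the library that stood apart 6 genes were called, with STC2 (2.48), VLDLR (1.53), CTH (-1.30), SLC7A11 (-1.91) and SLC1A5 (-1.06) beside ALDH1L2. The count was 3 without replicate 1 of untreated MDCK-NBL2, which added ATF5 and DDIT3, 3 without replicate 3, which added ATF3 and SLC7A5, and 2 without replicate 1 of untreated MDCK-II, which added AARS. Without replicate 2 of untreated MDCK-II ATF5 was called, and without MDCK-II TGFb replicate 1 VLDLR, each in place of ALDH1L2. Of the further pathway genes that passed, SHMT1, RRAGC, WARS2 and GADD45A were at -1.29 ± 0.27, 0.69 ± 0.17, -1.03 ± 0.27 and 1.26 ± 0.35.

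The siRNA comparison asks which of these genes depended on PRRX1 under TGFb. PRRX1 was at 1.11, 0.339 and 0 CPM with siPRRX1, against 33.9, 7.35 and 3.88 CPM with siCTR (-4.64 ± 1.17, adjusted p = 0.043). Of the 40 genes none rose and 2 fell, a share of 5%, where 0.81% of all genes rose and 1.19% fell, and the median was -0.15 against 0 for all genes. The siPRRX1 libraries lay wholly above those with siCTR for 4 genes and wholly below for 6, against 15.3% and 16.4% of all genes. SLC1A4 was at 99.4, 57.3 and 54.4 CPM with siPRRX1, against 218, 174 and 184 CPM with siCTR, without overlap (-1.44 ± 0.26, adjusted p = 0.0044). Its call ended only without siPRRX1 replicate 3 (adjusted p = 0.056), among the 6 fits that each left out 1 library. SARS was at 107, 91.8 and 87.9 CPM with siPRRX1, against 123, 154 and 142 CPM with siCTR (-0.55 ± 0.12, adjusted p = 0.021), and lost its call without replicate 2 or 3 of either group, with an adjusted p of up to 0.17.

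DDIT3 was at 4.79, 3.5 and 3.67 CPM with siPRRX1, against 7.86, 8.47 and 9.54 CPM with siCTR, also without overlap, and did not pass the test (-1.08 ± 0.34, adjusted p = 0.11). SLC7A11 was at 3.73, 1.69 and 1.41 CPM with siPRRX1, against 3.05, 9.11 and 7.12 CPM with siCTR, which overlapped (-1.26 ± 0.58, adjusted p = 0.31). ATF4, ASNS, CTH and CHAC1 were at -0.25, -0.15, 0.27 and -0.10 with SEs of 0.23 to 0.44. A fit of these groups alone called 6 of the 40. Beside this, 3 of 8 epithelial markers rose, with sums of 2370 to 3160 CPM with siPRRX1, against 1630 to 2150 CPM with siCTR, and the dividing-cell markers summed to 34.7 to 65 CPM with siPRRX1, against 67.9 to 132 CPM with siCTR, with none called; their part was not tested.

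The siCTR cells with TGFb were set against cells with TGFb alone to show what the siRNA procedure did. None of the 40 genes and 0% of all genes passed in edgeR, and DESeq2 also called 0 genes. At an unadjusted p under 0.05 there were 212 genes, with 1 of the 40 among them. The changes ran from -0.67 for NUPR1 to 0.23 for ATF5.

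The last comparisons set the sublines against each other in 3 states. At day 0, 4 genes were higher in MDCK-NBL2 and 6 lower (15%), where 14.8% of all genes were higher and 13.8% lower. Untreated at day 4, 1 was higher and 18 lower (45%), where 21% of all genes were higher and 15.3% lower, with a median of -0.51 against 0.02 for all genes. With TGFb, 3 were higher and 17 lower (42.5%), where 23.7% of all genes were higher and 22.3% lower, with a median of -0.45 against -0.01. These states share their libraries with the comparisons above.

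ASNS and PSAT1, with the synthetases GARS and NARS, were lower in MDCK-NBL2 in all 3 states. ASNS stood at -1.23 ± 0.34 at day 0, -1.24 ± 0.34 untreated at day 4 and -2.29 ± 0.35 with TGFb. PSAT1 stood at -1.40 ± 0.42, -1.76 ± 0.42 and -2.69 ± 0.44, GARS at -0.51 ± 0.14, -0.70 ± 0.14 and -0.64 ± 0.14, and NARS at -0.38 ± 0.12, -0.60 ± 0.12 and -0.52 ± 0.12. SLC38A2 was higher in MDCK-NBL2 in all 3, at 0.67 ± 0.22, 0.60 ± 0.22 and 0.82 ± 0.22. At day 0 the call ended for PSAT1 without replicate 2 of either line (adjusted p of up to 0.065) and for NARS without replicate 3 of either line, MDCK-II replicate 2 or MDCK-NBL2 replicate 1 (up to 0.089). The SLC38A2 call held at day 0 only without MDCK-NBL2 replicate 3 (up to 0.12 otherwise), and ended untreated at day 4 without replicate 1 of either line (up to 0.28).

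Other genes differed in some states. VLDLR was at 15.7, 14 and 25 CPM in MDCK-NBL2 at day 0, against 2, 2.04 and 2.04 CPM in MDCK-II (3.14 ± 0.41, adjusted p = 8.1e-06), and was higher again with TGFb (2.13 ± 0.35, adjusted p = 7.9e-05), while untreated at day 4 it did not pass (0.77 ± 0.33, adjusted p = 0.08). ALDH1L2 was lower at day 0 (-1.93 ± 0.33) and untreated at day 4 (-2.25 ± 0.33), and with TGFb was at -0.57 ± 0.31 (adjusted p = 0.14). ATF5 and DDIT3 were lower untreated at day 4 (-2.22 ± 0.43 and -1.52 ± 0.31), and in the other states their adjusted p was 0.38 or more. SLC7A11, CTH, SLC1A5 and SLC7A1 were lower with TGFb, at -2.74 ± 0.53, -2.28 ± 0.43, -1.46 ± 0.29 and -1.19 ± 0.25. The SLC7A11 levels there were 4.6, 7.07 and 4.96 CPM in MDCK-NBL2, against 37.7, 43.4 and 31.6 CPM in MDCK-II, and these calls held in each fit that left out 1 library.

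The other calls were mostly smaller. At day 0, SLC1A4 (1.04 ± 0.26) and CEBPB (0.77 ± 0.23) were higher in MDCK-NBL2 and ATF4 (-0.66 ± 0.23) lower, and the ATF4 call ended without any 1 of the 6 libraries (adjusted p of up to 0.14). The CEBPB call ended without replicate 1 or 3 of MDCK-II or replicate 2 or 3 of MDCK-NBL2 (up to 0.074). Untreated at day 4, CTH, CHAC1, SLC7A11, SESN2, SLC7A1, AARS, CEBPG, PSPH, SARS, XPOT and TARS were also lower, at -1.42 to -0.38. Without the library that stood apart, SLC7A11 (-0.83, adjusted p = 0.16) and TARS (-0.25, adjusted p = 0.13) were not called there. Both also lost their calls without replicate 2 or 3 of MDCK-II, SLC7A11 without MDCK-NBL2 replicate 3 and TARS without MDCK-NBL2 replicate 1 (up to 0.17 and 0.15). CHAC1 lost its call without MDCK-II replicate 2 or MDCK-NBL2 replicate 3 (up to 0.072), CTH and SLC7A1 theirs without MDCK-II replicate 3 (adjusted p = 0.051 and 0.055), and PSPH its call without MDCK-NBL2 replicate 3 (adjusted p = 0.064). With TGFb, EPRS was higher (0.57 ± 0.13), and CHAC1, PCK2, ATF4, SESN2, SLC7A5, SHMT2, CEBPG, AARS and XPOT were also lower, at -1.35 to -0.32. EPRS, ATF4 and AARS kept their calls with TGFb in each of the 6 fits that left out 1 library, while XPOT lost its call in every one (adjusted p of up to 0.086). CEBPG, SESN2 and SLC7A5 were each called in 2 of the 6 (up to 0.15, 0.11 and 0.1), and CHAC1, PCK2 and SHMT2 in 3 of the 6 (up to 0.088, 0.11 and 0.16). All 6 of these lost their calls without MDCK-II replicate 1 and without MDCK-NBL2 replicate 3; CEBPG, CHAC1, SESN2, SHMT2 and SLC7A5 also did without MDCK-II replicate 2, CEBPG, PCK2 and SLC7A5 without MDCK-NBL2 replicate 1, and SESN2 without MDCK-NBL2 replicate 2.

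Of the further pathway genes, 4 of 11 NRF2 pathway genes were lower in MDCK-NBL2 at day 0 and 7 of 11 in each state at day 4, with GCLC, of glutathione synthesis, at -1.48 ± 0.23, -2.21 ± 0.24 and -1.85 ± 0.24 in the order above, and none was higher. The 7 in each state at day 4 include SLC7A11, which is also among the 40 genes. The mitochondrial isoleucyl synthetase gene IARS2 was higher at 0.62 ± 0.09, 0.91 ± 0.09 and 1.18 ± 0.09. Without day 0 replicate 1 of MDCK-NBL2, which carried MDCK-II genes, 7 of the 40 genes were called at day 0 in place of 10, with ATF4, SLC38A2 and NARS lost. Without day 0 replicate 2 of MDCK-NBL2, or replicate 2 or 3 of MDCK-II, the count was 6. Untreated at day 4 the count was 20 in place of 19 without the MDCK-NBL2 library that stood apart. A fit of the compared groups alone called 23 at day 0 and 3 untreated at day 4. With TGFb the count was 13 without MDCK-NBL2 replicate 3 or MDCK-II replicate 1.

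**Figure D5:**
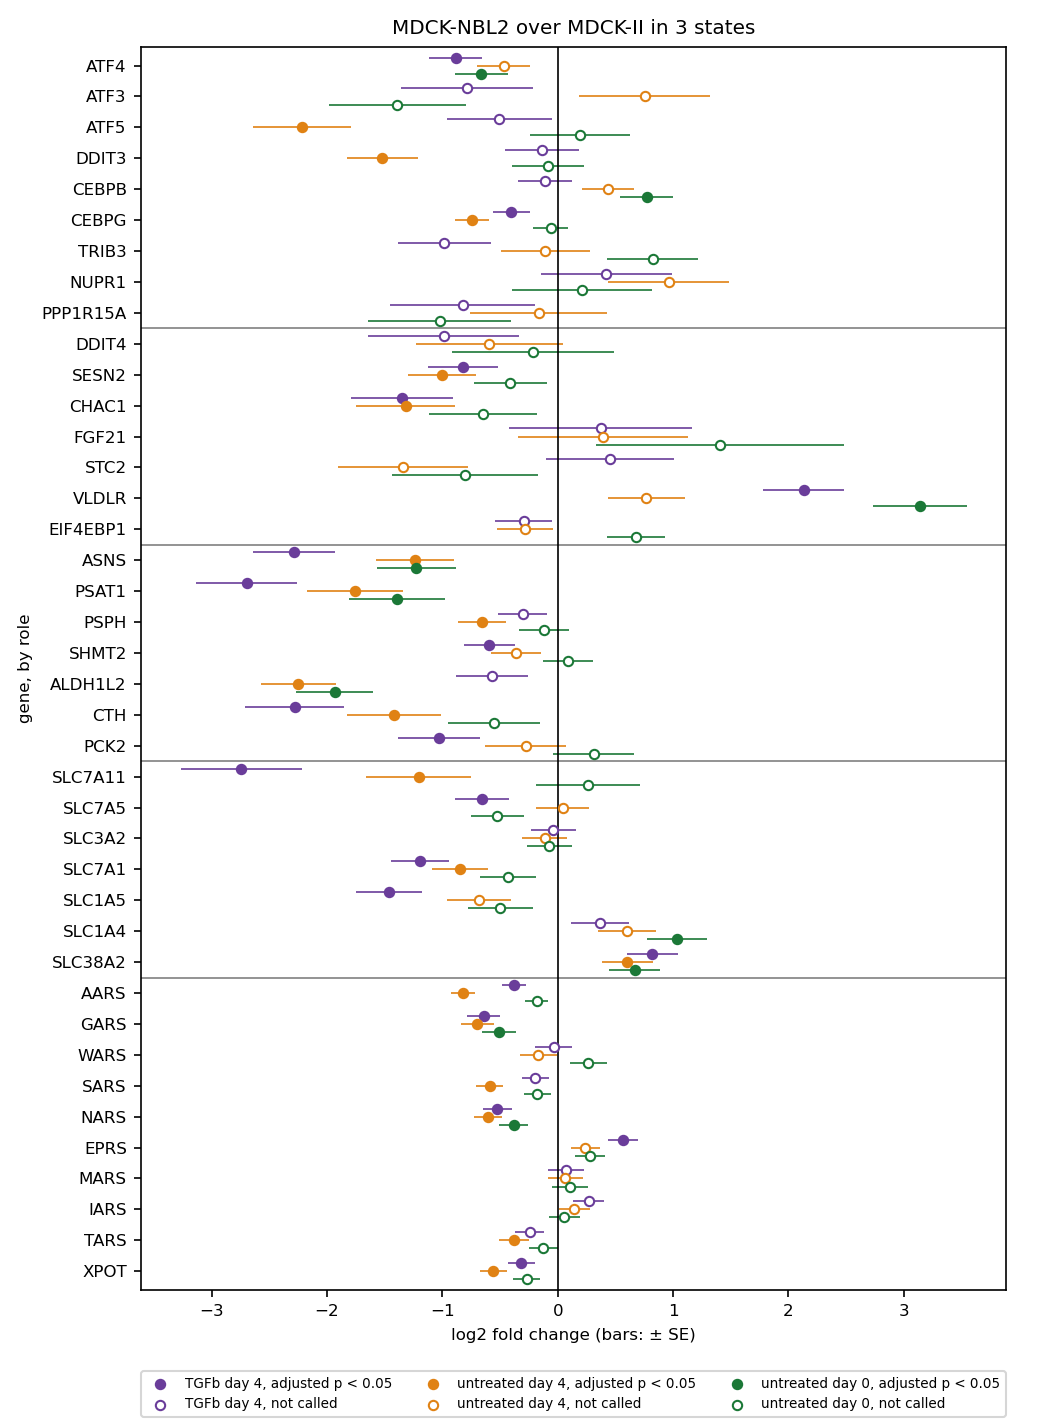
Log2 fold change of MDCK-NBL2 over MDCK-II for each gene with TGFb at day 4 (purple), untreated at day 4 (orange) and untreated at day 0 (green), with bars of ± SE and filled points where the adjusted p was under 0.05. ASNS, PSAT1, GARS and NARS are filled and left of 0 in all 3 states, and VLDLR lies right of 0 at day 0, at 3.14.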

How the data were processed

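The authors deposited a table of whole-number counts per gene for 24 libraries, with no normalization. STAR 2.5.3a, FastQC and RSEM 1.3.0 are named, per the submitters' processing notes, along with CanFam3.1, a build of the dog genome. Which step each did, the annotation, the strand setting and any rounding were not given in the sources used here. Reads from overlapping or antisense genes may therefore be shared. Each column matched 1 sample by its label. The dose unit of TGFb is doubtful and left out.

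In R 4.3.3, edgeR 4.0.16 fitted 1 mean per group to all 24 libraries (16 residual degrees of freedom), with TMM scaling, filterByExpr (minimum count 10, minimum total 15) and a prior count of 0.125. The quasi-likelihood F test was adjusted over all 12466 genes by the Benjamini-Hochberg method. The SE was taken as the absolute change divided by √F. The script was tested on simulated counts. Total counts ran from 6134929 to 27567296 per library, and changes of FGF21 and DDIT4 are the least precise.

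The 40 genes and the other lists were chosen with earlier results of these data known. The text names any called gene of the list, uncalled genes of the same role, up to 4 further pathway genes per comparison with the smallest adjusted p, and PRRX1; 1 such result is not reported here. A search of promoters for an ATF4 motif was not run, since no sequence of the files' build was used here, and positions are not given.

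Same-numbered libraries deviated together in 2 comparisons: TGFb in MDCK-II (correlations of deviations from the group means 0.42, 0.25 and 0.3) and siPRRX1 against siCTR (0.34, 0.19 and 0.16). These count as paired. Alternatives were DESeq2 1.42.0 size factors, the DESeq2 Wald test, no filter, the replicate number as a block, a term for the series of library numbers, only the compared groups, and each library left out in turn. Leaving out MDCK-NBL2 untreated day 4 replicate 2 in all comparisons was added after seeing the data. Library numbers ran from 5851 to 5855 for MDCK-NBL2 TGFb replicate 1 and replicates 2 and 3 of both siRNA groups. All other libraries were numbered from 2646 to 2683. Replicate 1 of siCTR and of siPRRX1 had 26655390 and 22172939 counts, against 7202327 to 9144704 in replicates 2 and 3.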

Additional observations from a re-analysis of the deposited data

Results flagged for a closer look

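ALDH1L2 was the 1 gene of the list whose response to TGFb differed between the sublines by a test of the difference itself, at 1.68 on the log2 scale for MDCK-NBL2 minus MDCK-II (adjusted p = 0.033, edgeR's quasi-likelihood F test, Benjamini-Hochberg). All 3 MDCK-NBL2 libraries with TGFb (99.4, 92.2 and 63.1 CPM) lay above the 3 untreated ones (33.9, 26.9 and 9.18 CPM), while the MDCK-II libraries overlapped (134, 127 and 118 CPM with TGFb, against 120, 106 and 113 CPM untreated). The call ended in 7 of 12 fits that each left out 1 library.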

How the results depend on the processing

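Each count below is of the 40 genes called. For the alternative edgeR fits the share of all genes called was not computed. A changed count there may be one of all genes and is not read as a result about these 40. With only the groups compared in the fit, the count was 2 in place of 17 for TGFb in MDCK-NBL2 and 20 in place of 13 for TGFb in MDCK-II. It was 0 in place of 1 for the difference of responses, 6 in place of 2 for siPRRX1 and 0 in place of 20 for day 4 over day 0 in MDCK-NBL2. For the lines it was 23 in place of 10 at day 0 and 3 in place of 19 untreated at day 4. The counts that fell were those of comparisons that use the untreated MDCK-NBL2 day 4 libraries, and those that rose do not use them. In the main fit the estimate of the spread is shared over all 8 groups. The cause of the changed counts was not tested. The DESeq2 Wald test gave 3 for the difference of responses, with DDIT3 and AARS added, where it called 1205 of 12076 genes in all. No filter on low counts gave 1 for siPRRX1. The other counts under these settings, DESeq2 size factors and the library number series stayed within 1.5 times. Leaving out 1 library at a time gave 13 to 20 for TGFb in MDCK-NBL2, 6 to 17 in MDCK-II, 0 to 6 for the difference, 0 to 2 for siPRRX1, 0 for siCTR, 10 to 24 and 18 to 27 for day 4 in MDCK-NBL2 and MDCK-II, and 6 to 12, 15 to 22 and 13 to 21 for the lines at day 0, untreated at day 4 and with TGFb. PPP1R15A with TGFb in MDCK-NBL2 ranged from -2.31 to 0.32, reversing without untreated replicate 1, which held 158 CPM.

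With the replicate block, the paired comparisons gave 14 for TGFb in MDCK-II and 2 for siPRRX1, and changed no call in them but that of PCK2. The difference of responses takes in the paired MDCK-II libraries, and there the block gave 2 in place of 1, adding DDIT3. In the others same-numbered libraries were not counted as paired. The labels do not state whether they were handled together, though the library numbers of same-numbered untreated ones lie close together. There the block gave 16 for TGFb in MDCK-NBL2, 20 and 26 for day 4 in MDCK-NBL2 and MDCK-II, and 11, 21 and 21 for the lines. As a hint from the data and not the design, every library correlated best with its own number in the lines at day 0 and with TGFb, and 1 of 3 did for TGFb in MDCK-NBL2.

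With 3 libraries a group, only changes that are large against the spread were called, and outside the difference of responses FGF21, DDIT4 and PPP1R15A had the largest SEs, of up to 1.07, 0.75 and 0.65 on the log2 scale.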
